A study of Homo sapiens with 12 samples.

Results

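The 10 genes described here have been used to mark melanoma cells that tolerate drug, and they were followed through treatment of COLO858 and MMACSF, human BRAF-mutant melanoma cell lines, with vemurafenib, an inhibitor of the mutant RAF kinase. The members, taken by symbol from a named list, were KDM5B, KDM5A, ABCB5, ALDH1A1, ALDH1A3, CD36, AQP1, GFRA2, NES and PROM1. All 10 had a row among the 23273 genes of each line's table. RNA was measured in 12 libraries, 2 replicates in each of 6 groups: each line in DMSO, the solvent control, and each line treated with vemurafenib (0.2 μM) for 24 or 48 h. No hour is labelled for the DMSO groups, so both times were compared with the same 2 DMSO libraries of their line. Each line is a single culture model, the replicates are plates of it, and the p-values measure the spread between plates only.

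Cancer cell populations can hold cells that divide slowly and survive a drug without a new mutation, and such tolerant cells are commonly recognised by marker genes from several unrelated pathways. KDM5A and KDM5B are demethylases that remove methyl groups from lysine 4 of histone H3, a mark of active promoters. ABCB5 is a drug efflux transporter, and ALDH1A1 and ALDH1A3 oxidise retinal to retinoic acid. CD36 takes up fatty acids, AQP1 is a water channel, and GFRA2 is a co-receptor for neurturin, a ligand of the GDNF family. NES encodes nestin, an intermediate filament protein of neural progenitors, and PROM1 encodes prominin-1 (CD133), a membrane glycoprotein used to mark stem-like cells.

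Levels are given in FPKM (fragments per kilobase, a count of fragments corrected for transcript length and library size), the authors' own normalised unit. Changes are log2 fold-changes of FPKM + 1, tested with limma across every gene that averaged 1 FPKM or more in some group, and a change was called at a Benjamini-Hochberg adjusted p under 0.01. Adding 1 FPKM compresses the change of genes near or under 1 FPKM. Of the members, 6 passed this minimum in both lines (KDM5B, KDM5A, ABCB5, ALDH1A1, ALDH1A3 and NES). The other 4 members stayed under it in every group of both lines.

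The members did not move as one set. After 24 h, COLO858 had 2 of 6 tested members called, ABCB5 higher and ALDH1A3 lower, where 9.82% of all tested genes were called. After 48 h, COLO858 had 3 of 6 called, ABCB5 and NES higher and ALDH1A3 lower, against 9.47% of all genes. In MMACSF, limma called 0 of 6 members at 24 h, against 5.83% of all genes, although all 6 had an unadjusted p under 0.05. This count and that of all genes were larger with the replicate number as a block, as given at the end. At 48 h 3 of 6 were called in MMACSF (KDM5B up, ALDH1A3 and NES down), against 8.83% of all genes. ABCB5 entered the COLO858 counts through its treated groups, since its DMSO mean was 0.325 FPKM, and a gene that enters this way had to differ. With so few members, these counts are read gene by gene below. The 24 and 48 h counts share their DMSO libraries and are not independent.

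**Figure D1:**
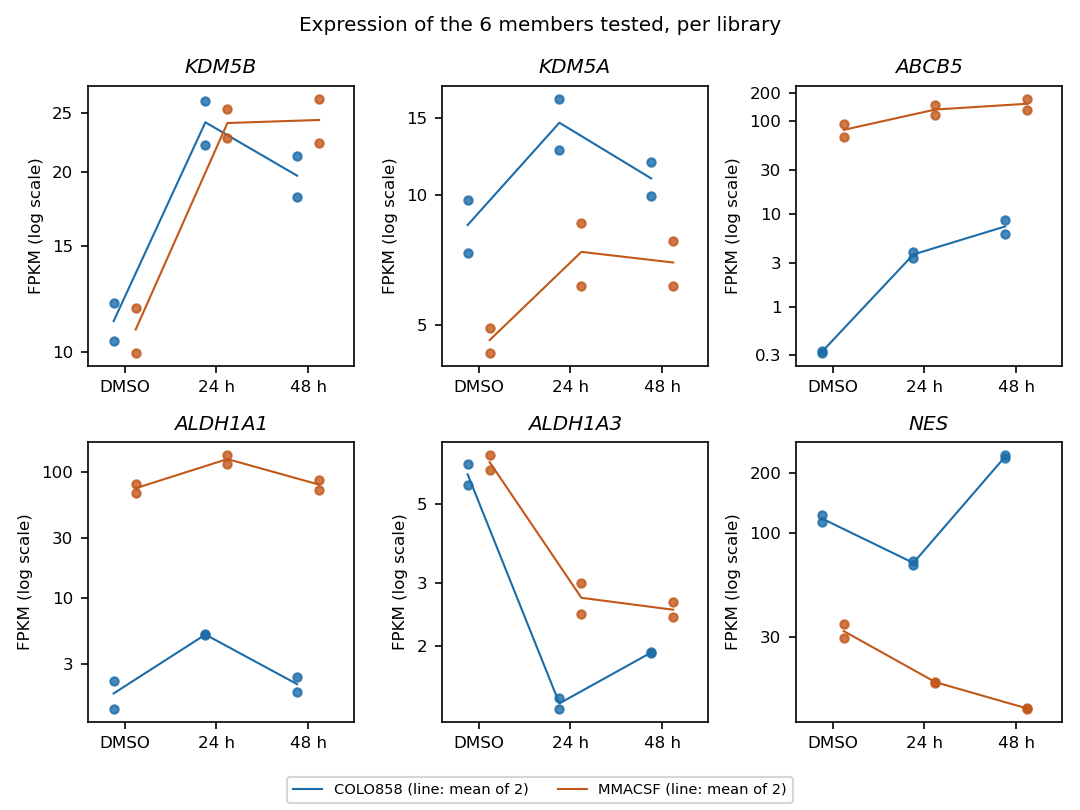
Expression of the 6 tested members in FPKM on a log scale (y axis) in DMSO and after 24 and 48 h of vemurafenib (x axis). Each point is 1 library, the lines join the means of 2 libraries, blue is COLO858 and orange is MMACSF. Treated KDM5B libraries lie above and treated ALDH1A3 libraries below the DMSO libraries of their line, while NES at 48 h is 246 and 236 in the COLO858 libraries and 13.3 and 13.1 in those of MMACSF.

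The 250 bases before the RefSeq start of 4 members are shown because their levels went different ways: KDM5B had higher treated means in both lines (called in MMACSF at 48 h), ALDH1A3 was called lower in both, NES was called in opposite directions at 48 h, and ALDH1A1 had a very different untreated level in each line. They are from the RefSeq table on GRCh38.p14, on the gene's strand, and capitals mark each GC box, the letters GGGCGG on either strand. The KDM5B stretch lies at chr1:202808422-202808671 and the ALDH1A3 stretch at chr15:100879581-100879830. The NES stretch lies at chr1:156677408-156677657 and the ALDH1A1 stretch at chr9:72953054-72953303.
KDM5B: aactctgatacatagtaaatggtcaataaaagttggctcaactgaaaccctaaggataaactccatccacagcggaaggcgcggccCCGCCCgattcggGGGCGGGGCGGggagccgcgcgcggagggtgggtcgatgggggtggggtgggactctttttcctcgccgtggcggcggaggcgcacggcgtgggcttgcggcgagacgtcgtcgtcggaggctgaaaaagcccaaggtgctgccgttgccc
ALDH1A3: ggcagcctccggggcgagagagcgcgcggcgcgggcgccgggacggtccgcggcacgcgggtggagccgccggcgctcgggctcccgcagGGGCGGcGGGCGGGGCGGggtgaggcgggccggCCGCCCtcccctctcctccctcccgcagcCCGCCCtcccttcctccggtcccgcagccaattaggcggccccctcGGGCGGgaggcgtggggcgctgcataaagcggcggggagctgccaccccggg
NES: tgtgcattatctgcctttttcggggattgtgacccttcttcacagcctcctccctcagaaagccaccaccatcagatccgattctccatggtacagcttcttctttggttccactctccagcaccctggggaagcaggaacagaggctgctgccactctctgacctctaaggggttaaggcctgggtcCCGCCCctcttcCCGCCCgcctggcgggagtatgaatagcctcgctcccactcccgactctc
ALDH1A1: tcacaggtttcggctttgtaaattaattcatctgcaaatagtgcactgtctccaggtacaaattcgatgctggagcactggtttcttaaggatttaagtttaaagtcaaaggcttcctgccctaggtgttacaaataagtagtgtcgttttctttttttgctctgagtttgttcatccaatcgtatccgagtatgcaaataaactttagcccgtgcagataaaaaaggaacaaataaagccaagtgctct

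The GC box occurred 3 times in the KDM5B stretch, 6 times in that of ALDH1A3 and 2 times in that of NES, and some copies overlap each other. It did not occur in the ALDH1A1 stretch, whose GC content was 38.4% against 82.4% for ALDH1A3. Of all 35116 promoter stretches of the same length, 42.6% held a GC box. The letters of an E-box (CACGTG, in 6.34% of all stretches), an AP-1 site (TGANTCA, in 6.57%) and an ETS core (CCGGAAG, in 8.52%), searched on both strands, were in none of the 4 stretches shown. These are letter matches in a window and no binding was measured.

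KDM5B (chr1:202693623-202777615 on GRCh37, the build of the files, minus strand) was 1.75 to 2.24 times its DMSO mean across both lines and times. In COLO858 it was 10.4 and 12.1 FPKM in DMSO, 22.1 and 26.2 at 24 h, and 18.1 and 21.3 at 48 h. The MMACSF levels were 9.97 and 11.8 FPKM in DMSO, 22.8 and 25.4 at 24 h, and 22.3 and 26.5 at 48 h. Every treated library was above both DMSO libraries of its line, and the 24 and 48 h values overlapped in MMACSF. Of the 4 changes against DMSO, the rise in MMACSF at 48 h was called (log2 1.09 ± 0.16 SE, adjusted p = 0.00832, limma). The other 3 missed the threshold, with log2 values of 1.04 (adjusted p = 0.0118) and 0.75 (0.0290) in COLO858 at 24 and 48 h and 1.08 (0.0106) in MMACSF at 24 h. The difference of the 48 h changes, COLO858 minus MMACSF, was −0.34 with a 95% interval of −0.84 to 0.16. The MMACSF call was lost when any 1 of the 6 MMACSF libraries was left out, with adjusted p between 0.0194 and 0.0655 while the log2 change stayed between 0.97 and 1.21.

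Genes of cell division were lower at 24 h in both lines, where KDM5B was high. The summed level of 10 division genes was 618 and 783 FPKM in COLO858 DMSO, 88.6 and 106 at 24 h, and 432 and 529 at 48 h. In MMACSF it was 326 and 375 in DMSO, 63.2 and 70.7 at 24 h, and 40.8 and 40.9 at 48 h. All 10 were called lower at 24 h in both lines and at 48 h in MMACSF, with median log2 changes of −2.71, −2.20 and −3.10. Of all genes, 9.82%, 5.83% and 8.83% were called in these comparisons. At 48 h in COLO858, limma called 0 of 10, against 9.47% of all genes. The median there was −0.59, with 4 at an unadjusted p under 0.05, while KDM5B was 1.75 times its DMSO mean. The part of cell division in the KDM5B levels was not tested, and in bulk RNA fewer expressing cells and less RNA per cell cannot be told apart.

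KDM5A (chr12:389223-498486, minus strand), the paralogue of KDM5B, passed the threshold in no comparison of this fit. With the replicate number as a block it was called in COLO858 at 24 h, as given at the end. The KDM5A level was 7.32 and 9.70 FPKM in COLO858 DMSO, 12.7 and 16.7 at 24 h, and 9.94 and 11.9 at 48 h. The MMACSF levels were 4.31 and 4.92 FPKM in DMSO, 6.15 and 8.60 at 24 h, and 6.14 and 7.79 at 48 h. Each treated library lay above the DMSO libraries, by a narrow gap in COLO858 at 48 h. The log2 changes at 24 h were 0.72 in COLO858 (95% interval 0.18 to 1.26, adjusted p = 0.0631) and 0.56 in MMACSF (0.04 to 1.08, adjusted p = 0.117). KDM5A overlaps CCDC77 on the opposite strand, and the strand setting of the counting is not stated.

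The other lysine demethylases and the complexes that write the H3K4 mark were counted beside the KDM5 genes. Of 16 other demethylases tested in COLO858, KDM4A was called higher and HR lower at 24 h, where 9.82% of all genes were called, and KDM4A alone at 48 h, against 9.47%. KDM4A, a demethylase of H3K9 and H3K36, was at 14.6 FPKM in DMSO, 36.7 at 24 h (log2 1.27, adjusted p = 0.00340) and 30.1 at 48 h (0.99, adjusted p = 0.00682). HR, the hairless demethylase, was called lower at 24 h, from 3.20 to 0.564 FPKM. In MMACSF limma called 0 of 16 at either time, with 10 and 9 genes at an unadjusted p under 0.05, against 5.83% and 8.83% of all genes called. Of 12 genes tested of the H3K4 methyltransferase complexes, the enzymes and their partner subunits, limma called 0 in all 4 comparisons with DMSO. In each, 2 to 5 genes had an unadjusted p under 0.05. At 24 and 48 h the demethylase median was 0.31 and 0.30 in COLO858, beside 0.06 and −0.01 over all genes tested. For MMACSF it was 0.42 and 0.30, beside 0.07 and 0.06.

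ABCB5 (chr7:20655290-20816658, plus strand) started from very different levels in the lines. In COLO858 it was 0.332 and 0.318 FPKM in DMSO, 3.39 and 3.94 at 24 h, and 6.03 and 8.65 at 48 h. In MMACSF it was 67.0 and 94.4 FPKM in DMSO, 116 and 151 at 24 h, and 134 and 175 at 48 h. No group of treated libraries overlapped the DMSO group of its line. In COLO858 the rise was called at both times, with log2 1.81 ± 0.20 SE (adjusted p = 0.00386) and 2.64 ± 0.20 SE (adjusted p = 0.00154). ABCB5 passed the minimum in COLO858 only through the treated groups, and with no minimum the adjusted p was 0.00753 and 0.00307. The ratio of mean FPKM, without the added 1, was 11.3 at 24 h and 22.6 at 48 h, although the COLO858 level at 48 h was still far below that of untreated MMACSF. In MMACSF the log2 values of 0.73 (adjusted p = 0.0910) and 0.93 (adjusted p = 0.0435) missed the threshold.

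The difference of the ABCB5 changes between lines was 1.08 at 24 h (adjusted p = 0.0871) and 1.70 at 48 h (95% interval 0.95 to 2.46, adjusted p = 0.0103), just short of the threshold. It depended on the constant added before taking logs, because COLO858 DMSO lies under 1 FPKM. With 0.1 FPKM added in place of 1, it was 2.41 (adjusted p = 0.00600) and 3.16 (adjusted p = 0.000767) and passed at both times. The COLO858 call at 48 h was lost without either DMSO library, and the call at 24 h without any 1 of the DMSO and 24 h libraries. The adjusted p over all libraries left out ran from 0.00672 to 0.0162 at 48 h and from 0.00683 to 0.0305 at 24 h.

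Of 24 other ABC transporters listed from the B, C and G subfamilies, none of those tested was called against DMSO. Limma called 0 of 11 tested in COLO858 and 0 of 12 in MMACSF at either time, with 3 and 6 genes at an unadjusted p under 0.05 in COLO858 at 24 and 48 h and 2 and 4 in MMACSF. For COLO858 their median log2 change was 0.02 at 24 h and −0.10 at 48 h, and for MMACSF −0.07 and −0.16. For the line difference limma called 0 of 13 at 24 h, with 1 at an unadjusted p under 0.05, and 1 of 13 at 48 h. The latter was ABCG1, a sterol exporter named after its values were seen, at −1.05 (adjusted p = 0.00303).

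ALDH1A1 (chr9:75515587-75695358, minus strand) had its highest level at 24 h in both lines. In COLO858 it was 1.31 and 2.19 FPKM in DMSO, 5.17 and 5.09 at 24 h, and 1.80 and 2.34 at 48 h. In MMACSF it was 68.5 and 80.5 FPKM in DMSO, 117 and 137 at 24 h, and 72.1 and 87.0 at 48 h. The 24 h libraries stood apart from both other groups in each line, while the DMSO and 48 h libraries overlapped. The 24 h values missed the threshold, at log2 1.18 in COLO858 (adjusted p = 0.0150) and 0.76 in MMACSF (adjusted p = 0.0281), and the step from 24 to 48 h was −1.003 (adjusted p = 0.0567) and −0.67 (adjusted p = 0.352). At 48 h the changes against DMSO were 0.17 (95% interval −0.35 to 0.70) and 0.09 (−0.31 to 0.49).

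ALDH1A3 (chr15:101417919-101456831, plus strand) fell in both lines. In COLO858 it was 5.63 and 6.44 FPKM in DMSO, 1.43 and 1.33 at 24 h, and 1.92 and 1.91 at 48 h. MMACSF had 6.22 and 6.83 FPKM in DMSO, 2.45 and 3.002 at 24 h, and 2.40 and 2.65 at 48 h. All 8 treated libraries were below all 4 DMSO libraries. The decrease was called in COLO858 at 24 h (log2 −1.56 ± 0.14 SE, adjusted p = 0.00238) and 48 h (−1.27 ± 0.14 SE, adjusted p = 0.00434) and in MMACSF at 48 h (−1.09 ± 0.15 SE, adjusted p = 0.00818). At 24 h in MMACSF it was −1.02 with an adjusted p of 0.0120. The difference between lines was −0.54 at 24 h (adjusted p = 0.102) and −0.17 at 48 h (95% interval −0.57 to 0.22). The 48 h calls of both lines were lost without any 1 library of the line (adjusted p 0.0156 to 0.0336 in COLO858 and 0.0162 to 0.0621 in MMACSF). The COLO858 call at 24 h was lost without any 1 of the DMSO and 24 h libraries, where adjusted p reached 0.0229.

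The other aldehyde dehydrogenases that were called were higher. Of 10 other aldehyde dehydrogenases tested in COLO858, 2 were called higher at 24 h and 3 at 48 h, and none lower. Of all genes, 9.82% and 9.47% were called there, in either direction. ALDH3B1 went from 3.43 FPKM in COLO858 DMSO to 11.8 at 48 h (log2 1.53, adjusted p = 0.00541) and from 4.63 to 14.4 in MMACSF (1.48, adjusted p = 0.00957). The mitochondrial enzyme ALDH1B1 went from 65.8 to 142 FPKM in COLO858 (1.09, adjusted p = 0.00457) and was 24.4 and 34.9 in MMACSF (0.50, adjusted p = 0.0511). ALDH6A1, an enzyme of valine breakdown, went from 2.82 to 7.79 FPKM in COLO858 at 48 h (1.20, adjusted p = 0.00744). In MMACSF 0 of 10 were called at 24 h, with 3 at an unadjusted p under 0.05, and 1 at 48 h. The share of all genes called there was 5.83% and 8.83%.

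Genes that make, bind or sense retinoic acid, the product of the ALDH1A enzymes, passed the threshold against DMSO in COLO858 alone. There 3 of 12 were called up at 24 h, and 4 up and 1 down at 48 h, against 9.82% and 9.47% of all genes. DHRS3 (0.138 FPKM in COLO858 DMSO) and CYP26A1 (0.0909), named after their values were seen, passed the minimum there only through treated groups. A gene that enters this way had to differ. RXRG, a retinoid X receptor, went from 3.24 FPKM in DMSO to 27.9 at 48 h (log2 2.78, adjusted p = 0.00118), and was 5.89 and 5.30 in MMACSF. RARB, a retinoic acid receptor, went from 20.1 to 76.4 FPKM (1.88, adjusted p = 0.00638) and did not reach the minimum in MMACSF. RDH10, which oxidises retinol to retinal, went from 3.66 to 11.7 FPKM (1.43, adjusted p = 0.00566). In MMACSF limma called 0 of 10 at either time, with 5 and 7 genes at an unadjusted p under 0.05, against 5.83% and 8.83% of all genes called. The median log2 change of the list at 24 and 48 h was 0.35 and 0.42 in COLO858 and 0.12 and 0.51 in MMACSF. In MMACSF, RDH5, DHRS3, LRAT and CYP26B1 (0.346, 0.287, 0.682 and 0.879 FPKM in DMSO) passed the minimum only through treated groups. They are also named after their values were seen. The medians of both lines include genes that entered this way, which raises them, so they are not read as a rise of the list. Tested directly, 4 of 15 of these genes differed between lines at 24 h and 5 of 15 at 48 h, against 3.71% and 7.48% of all genes. The difference, COLO858 minus MMACSF, was above 0 for 3 and below 0 for 1 at 24 h, and for 3 and 2 at 48 h.

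NES (chr1:156638555-156647199, minus strand) was called in opposite directions in the lines at 48 h. In COLO858 it was 123 and 114 FPKM in DMSO, 68.9 and 72.7 at 24 h, and 246 and 236 at 48 h. MMACSF had 34.8 and 29.7 FPKM in DMSO, 17.8 and 18.0 at 24 h, and 13.3 and 13.1 at 48 h. The replicates were close and no 2 groups of a line overlapped. In both lines the 24 h level was under DMSO, at log2 −0.73 in COLO858 (adjusted p = 0.0109) and −0.81 in MMACSF (adjusted p = 0.0135), neither past the threshold. At 48 h NES rose against DMSO in COLO858 (1.02 ± 0.12 SE, adjusted p = 0.00460) and fell in MMACSF (−1.22 ± 0.13 SE, adjusted p = 0.00393).

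From 24 to 48 h, NES rose by 1.75 ± 0.12 SE in COLO858 (adjusted p = 0.00413), the only 1 of 6 members called in that comparison, where 1.38% of all genes were called. The same step in MMACSF was −0.41 (adjusted p = 0.556), and limma called 0 of 6 members there, with 2 at an unadjusted p under 0.05, against 0.222% of all genes. The line difference for NES was 0.08 at 24 h (95% interval −0.25 to 0.41) and 2.24 at 48 h (1.91 to 2.57, adjusted p = 4.45e-05). At 48 h it was the 1 of 6 members called, where 7.48% of all genes were. At 24 h limma called 0 of 6 for the line difference, with 2 at an unadjusted p under 0.05, against 3.71% of all genes. The 48 h line difference stayed past the threshold without each of the 12 libraries in turn, between 2.13 and 2.35, with adjusted p of at most 0.000504. The 3 NES calls within a line were each lost without any 1 library of that line. Of the 10 division genes given above, 8 were called higher for the line difference at 48 h, with a median of 2.53. The part of cell division in the NES levels was not tested.

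**Figure D2:**
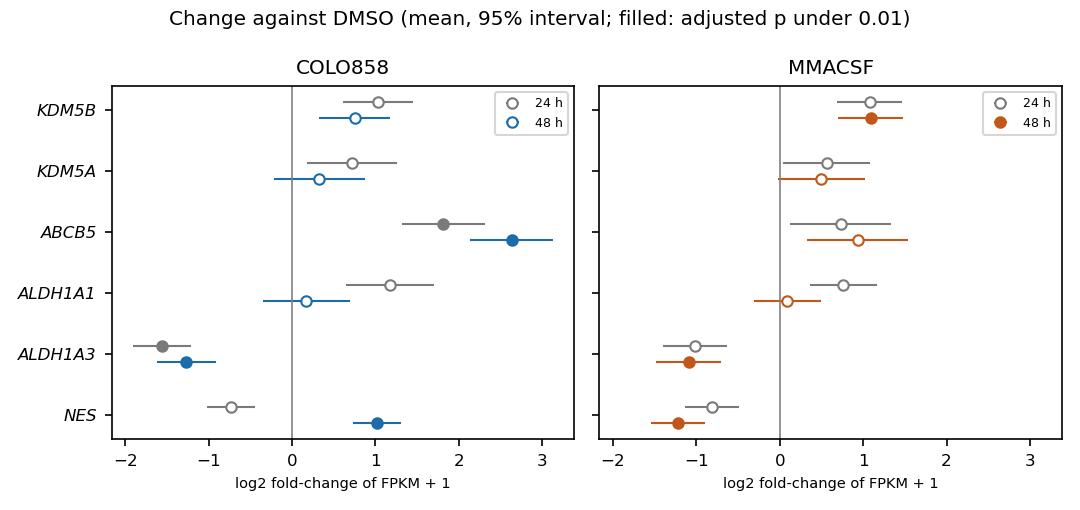
Change of the 6 tested members against DMSO, as log2 fold-change of FPKM + 1 (x axis), at 24 h (grey) and 48 h (coloured) in COLO858 and MMACSF. Points are estimates from 2 libraries a group, bars are 95% intervals and filled points have an adjusted p under 0.01. ALDH1A3 lies left of 0 in all 4 comparisons, and NES at 48 h lies at 1.02 in COLO858 and −1.22 in MMACSF.

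**Figure D3:**
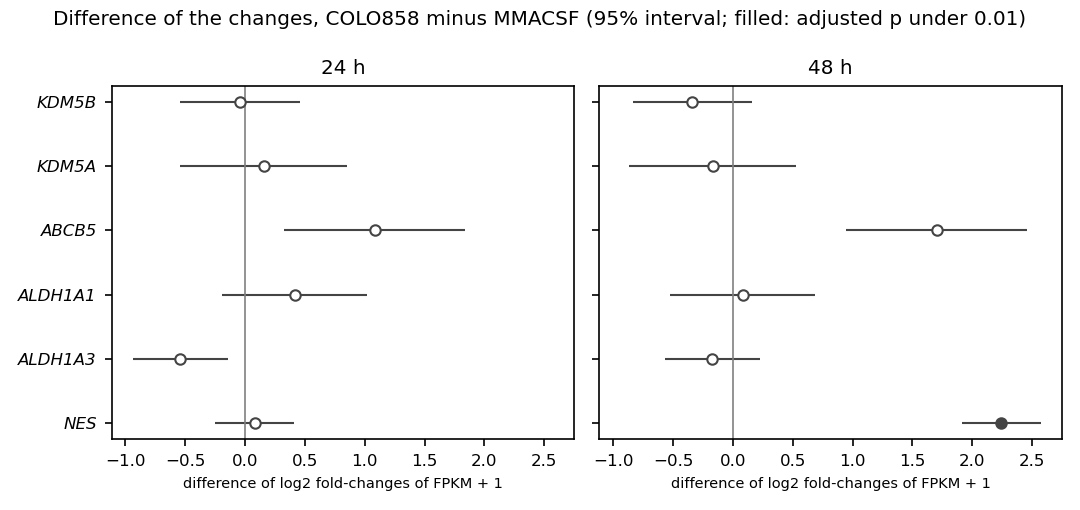
Difference of the changes against DMSO, COLO858 minus MMACSF, at 24 and 48 h on the log2 scale of FPKM + 1 (x axis), for the 6 tested members. Bars are 95% intervals from all 12 libraries and the filled point has an adjusted p under 0.01. NES at 48 h (2.24) is the one filled point, and ABCB5 at 48 h (1.70) is next in size.

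None of the neural genes listed beside NES was called higher. Of 10 neural stem cell and intermediate filament genes tested in COLO858, 1 was called lower at each time and none higher, where 9.82% and 9.47% of all genes were called at 24 and 48 h. That gene was NEFL, the light neurofilament subunit, at 118 FPKM in DMSO, 52.1 at 24 h (log2 −1.16, adjusted p = 0.00520) and 27.7 at 48 h (−2.05, adjusted p = 0.00126). VIM, encoding vimentin, which forms filaments with nestin, was 2099 FPKM in COLO858 DMSO and 2499 at 48 h (0.25, adjusted p = 0.325). This gene is named after its values were seen. In MMACSF limma called 0 of 7 of the listed genes at 24 and 48 h, against 5.83% and 8.83% of all genes. At each time 4 had an unadjusted p under 0.05, and 6 of 7 had a log2 change above 0. The median log2 change in MMACSF was 0.43 and 0.62, beside 0.07 and 0.06 over all genes tested. In COLO858 it was −0.16 and −0.06, beside 0.06 and −0.01.

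AQP1, GFRA2, CD36 and PROM1 were near the floor of the tables. GFRA2 (chr8:21547910-21669869, minus strand) was listed at 0 in 11 of 12 libraries and at 0.0438 FPKM in MMACSF at 48 h, replicate 2. AQP1 (chr7:30951468-30965132, plus strand) was listed at 0 in both MMACSF DMSO libraries and reached at most 0.237 FPKM, in COLO858 at 24 h. CD36 (chr7:79998891-80308593, plus strand) lay between 0.0505 and 0.469 FPKM. It was 0.118 and 0.0902 FPKM in COLO858 DMSO and 0.197 and 0.469 at 48 h. In MMACSF it was 0.412 and 0.266 FPKM in DMSO and 0.0505 and 0.264 at 48 h. The mean was thus higher at 48 h in COLO858 and lower in MMACSF, near the floor in both. CD36 overlaps GNAT3 on the opposite strand.

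PROM1 (chr4:15964699-16086001, minus strand) was 0.643 and 0.587 FPKM in MMACSF DMSO, 0.571 and 1.07 at 24 h, and 0.584 and 0.696 at 48 h. In COLO858 its highest library was 0.284 FPKM, and its highest MMACSF library, at 1.07, was the one value of the 4 genes above 1. PROM1 overlaps FGFBP2 on the same strand. Fitted with no minimum, none of the 4 genes was called in any comparison, and the smallest adjusted p was 0.179, for AQP1 in MMACSF at 24 h. The read depth is unknown, so a level of 0 here means listed at 0 and not absent.

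**Figure D4:**
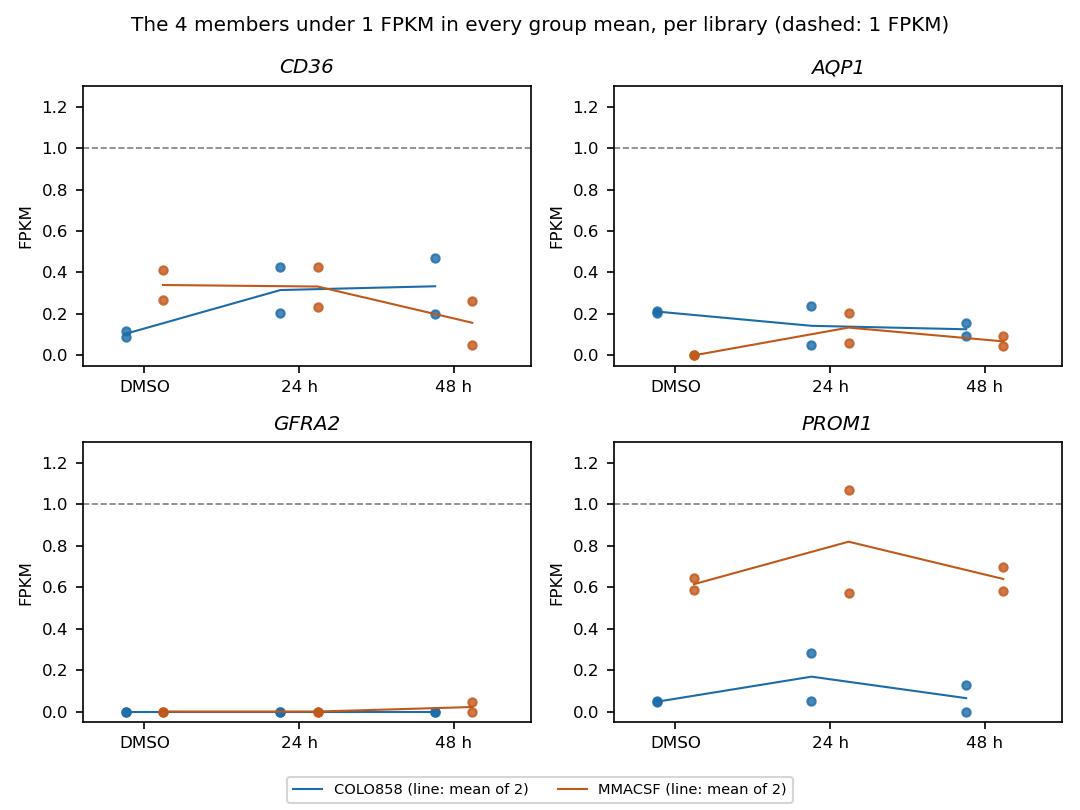
Expression of the 4 members under the minimum, in FPKM (y axis), in DMSO and after 24 and 48 h of vemurafenib (x axis). Points are libraries, lines join means of 2 libraries, blue is COLO858, orange is MMACSF and the dashed line marks 1 FPKM. A single library, PROM1 at 1.07 in MMACSF at 24 h, lies above the line.

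Lists of genes related to CD36, AQP1 and GFRA2 by function or family held some called genes. The list beside CD36 was for fatty acid uptake, storage and oxidation. Of its genes, 1 of 23 was called up and 4 down in COLO858 at 24 h, and 4 down at 48 h. Of all genes, 9.82% and 9.47% were called there. MMACSF had 2 of 22 down at 24 h and 3 at 48 h, against 5.83% and 8.83% of all genes called. SLC27A3, a fatty acid transport protein, went from 69.6 FPKM in COLO858 DMSO to 3.34 at 24 h and 1.97 at 48 h (log2 −4.59, adjusted p = 0.00103), and in MMACSF was 4.87 and 5.10 in DMSO and at 48 h. FABP5, a fatty acid binding protein, went from 68.6 to 16.7 FPKM in COLO858 and from 43.0 to 6.78 in MMACSF at 48 h (−1.98, adjusted p = 0.00387, and −2.50, adjusted p = 0.00488). PLIN2, which coats lipid droplets, went from 80.1 to 14.2 FPKM in COLO858 (−2.42, adjusted p = 0.00198) and was 41.6 and 22.8 in MMACSF (−0.84, adjusted p = 0.0108).

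Of 13 other aquaporins, 0 reached the minimum in COLO858 and 2 did in MMACSF, where 5.83% and 8.83% of all genes were called at 24 and 48 h. AQP6 was called higher there, from 1.08 FPKM in DMSO to 3.46 at 24 h (log2 1.10, adjusted p = 0.00937) and 3.16 at 48 h (1.00, adjusted p = 0.00963). Among the GDNF family receptors and ligands beside GFRA2, 1 of 4 tested was called in COLO858 at 48 h, against 9.47% of all genes. It was NCAM1, an adhesion molecule that also binds GDNF co-receptors, from 1.35 to 5.82 FPKM (1.53, adjusted p = 0.00351), and in MMACSF it was 19.1 and 27.8 (0.52, adjusted p = 0.0355). The authors had also reported NCAM1 as up-regulated in COLO858 from these data.

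Genes reported together with AQP1 and GFRA2 in a neural crest-like melanoma state were called where those 2 members were not detectable above the minimum. In COLO858 5 of 8 were higher at 24 h and 6 of 8 at 48 h, against 9.82% and 9.47% of all genes called. Their median log2 change at 48 h was 2.70, beside −0.01 over all genes tested. In MMACSF 2 of 7 and 4 of 7 were higher, against 5.83% and 8.83% of all genes called, with a median of 1.14 at 48 h, beside 0.06. RXRG, given above with the retinoid genes, is also in this list, so the results of these lists are not independent. The authors had reported NGFR and L1CAM, both in this list, as up-regulated in COLO858 from these same data. The COLO858 counts were therefore partly known in advance and are not independent support. NGFR, the low-affinity neurotrophin receptor, went from 2.85 to 44.8 FPKM in COLO858 (3.56, adjusted p = 0.000666), and was 3.10 and 0.727 in MMACSF (−1.23, adjusted p = 0.0177). Of 6 genes reported with CD36 in a nutrient-starved state, 5 were tested. PAX3, a neural crest transcription factor, was the one called against DMSO, in MMACSF, from 24.8 to 60.0 FPKM at 48 h (1.24, adjusted p = 0.00284). In COLO858 limma called 0 of 5 at 24 and 48 h, against 9.82% and 9.47% of all genes, and 1 and 5 had an unadjusted p under 0.05. There PAX3 was 8.73 FPKM in DMSO and 15.3 at 48 h (0.75, adjusted p = 0.0290). For the line difference IL1RAP was called at 24 h (2.78, adjusted p = 0.00500) and IL1RAP (3.29, adjusted p = 0.00124) and SLC12A7 (−1.44, adjusted p = 0.00686) at 48 h, genes named after their values were seen. The share of all genes called for that difference was 3.71% at 24 h and 7.48% at 48 h.

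**Figure D5:**
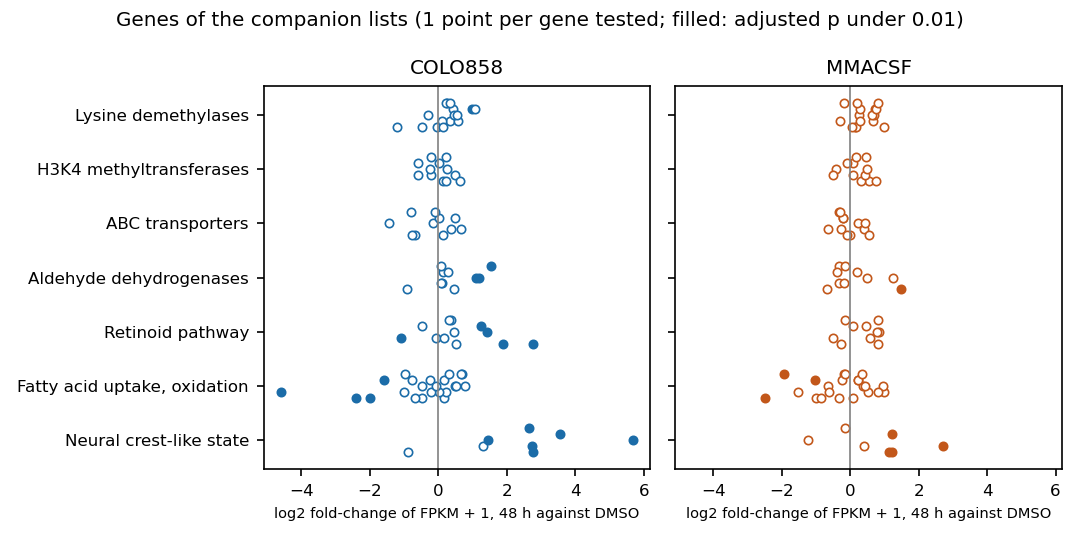
Change at 48 h against DMSO, as log2 fold-change of FPKM + 1 (x axis), of the tested genes of 7 lists around the members (rows), in COLO858 and MMACSF. Each point is 1 gene, filled where its adjusted p is under 0.01, and the vertical offset within a row has no meaning. The filled points of the neural crest-like row lie right of 0 in both lines, 6 of 8 genes in COLO858 and 4 of 7 in MMACSF. Of all genes, 9.47% and 8.83% were called. The neural crest-like row holds genes that the authors had reported as up-regulated in COLO858 from these data.

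In DMSO the lines already differed in several members, given side by side with no test because each line has its own table. The mean level was 248 times higher in MMACSF for ABCB5 (80.7 and 0.325 FPKM) and 42.6 times higher for ALDH1A1 (74.5 and 1.75). NES was 3.66 times higher in COLO858 (118 and 32.3), and KDM5A 1.84 times higher (8.51 and 4.61). KDM5B (11.3 in COLO858 and 10.9 in MMACSF) and ALDH1A3 (6.03 and 6.53) were within the spread of their replicates. The median log2 ratio of MMACSF to COLO858 over 10713 genes was −0.14.

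The order of FPKM levels, which are scaled to transcript length, also differed between lines. In COLO858 DMSO the order was NES, KDM5B, KDM5A, ALDH1A3, ALDH1A1 and ABCB5, and no neighbours overlapped in their replicates. In MMACSF DMSO it was ABCB5, ALDH1A1, NES, KDM5B, ALDH1A3 and KDM5A, and of these neighbours the replicates of ABCB5 and ALDH1A1 overlapped.

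The genes whose levels ran most closely with each called member were taken by Pearson's r over the 12 libraries, after the mean of each line was subtracted, among 11435 genes tested in both lines. For KDM5B they were HBP1 (r = 0.993), GANC (0.992) and ANKRD10 (0.990). ABCB5 ran closest with CD44 (0.991), ZFP36L1 (0.980) and RAI14 (0.979). ALDH1A3 ran closest with SPRY2 (0.988), EGR1 (0.988) and STK32B (0.986). For NES they were IQGAP3 (0.983), ADAM19 (0.967) and COBL (0.965). The 12 values fall into 6 groups of 2, and genes picked as the closest of so many are close by selection.

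Markers of endothelial cells, of erythroid cells and platelets, and of leukocytes were low. Of 6 endothelial markers, 6 erythroid and platelet markers and 6 leukocyte markers, 0 reached a mean of 1 FPKM in any group. Of 8 melanocyte markers, 6 to 8 reached it, and their summed level was 717 and 702 FPKM in COLO858 DMSO and 4144 and 4149 at 48 h, and 11160 and 11373 in MMACSF DMSO and 16831 and 17555 at 48 h. Fibroblast markers summed to 9.34 to 28.6 FPKM in COLO858 and 20.2 to 79.3 in MMACSF, led by LUM. Keratinocyte markers had 1 of 5 at the minimum, KRT10, and adipocyte markers 1 of 5, LPL, in COLO858 DMSO alone. The part of these genes in the member levels was not tested. Values of 1 library summed to between 670310 and 1013040 FPKM, which says nothing of its depth, and a single small RNA gene, MIR4461, made up 14.1% to 43.4% of it, more in replicate 2 of every group.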

How the data were processed

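RNA from COLO858 and MMACSF cells was sequenced as single reads from stranded mRNA libraries. The authors mapped reads to hg19 with TopHat and deposited FPKM values from Cuffdiff, 1 table per line. Program versions, gene annotation, strand setting and library scaling are not given in the sources used here. Depth is unknown, since FPKM gave no whole-read steps. All 12 value columns were used.

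Log2(FPKM + 1) was fitted with limma 3.58.1 in R 4.3.3 (empirical Bayes with trend, two-sided), as 3 groups per line or 6 groups for line differences. Tests covered every gene that averaged 1 FPKM or more in some group, with Benjamini-Hochberg adjustment over all of them and a threshold of 0.01. The code was tested on simulated data. Named genes were all members and, per list, at most 3 with the largest change past the threshold, plus the 3 genes closest to each called member by Pearson's r (small RNA genes left out). A gene that this rule names is not reported here. Members and lists were chosen with earlier results of these data known. Gene positions are from GENCODE v44 lifted to GRCh37 and promoters from RefSeq, in which 8 of 10 members matched. Alternatives were another added constant, other minimums, a replicate block, rescaling, no small RNA genes, no trend, fewer groups, a threshold of 0.05 and leaving out each library.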

Additional observations from a re-analysis of the deposited data

Results flagged for a closer look

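The change of NES at 48 h differed between the lines by 2.24 on the log2 scale of FPKM + 1 (COLO858 minus MMACSF), and it was flagged by the test of that difference itself (limma, adjusted p = 4.45e-05). It was not particular to NES, since the 10 division genes had a median of 2.53 in the same comparison. For NES, both COLO858 libraries at 48 h were above their DMSO libraries, and both MMACSF libraries were below theirs.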

How the results depend on the processing

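No direction of a member changed under any alternative that kept all libraries, but the number called did. With the minimum at 10 FPKM, 0 members were called in COLO858 at 24 h, 1 at 48 h and 1 in MMACSF at 24 h, and with no minimum 1 in MMACSF at 48 h, against 10.9%, 10.2%, 7.45% and 4.75% of all genes. The minimum of 10 FPKM left ABCB5, ALDH1A1 and ALDH1A3 untested in COLO858 (highest group means 7.34, 5.13 and 6.03 FPKM). It also left KDM5A and ALDH1A3 untested in MMACSF (7.37 and 6.53). Calls of these genes were removed by that minimum and were not tested again. Fitting only the groups compared gave 1 in COLO858 at 48 h, 0 from 24 to 48 h and 0 in MMACSF at 48 h, against 3.95%, 0.283% and 4.64%. Adding 0.1 FPKM gave 1 in MMACSF at 24 h, 1 for the line difference at 24 h and 2 at 48 h, against 5.84%, 2.47% and 6.21%. Median-ratio rescaling gave 2 in MMACSF at 24 h and 2 for the line difference at 48 h, against 7.31% and 8.85%. Leaving out small RNA genes gave 5 in COLO858 at 24 h, 3 in MMACSF at 24 h and 2 for the line difference at 48 h, where 14.1%, 10.1% and 8.67% of all genes were called. A threshold of 0.05 gave 5, 4 and 2, against 25.8%, 20.3% and 15.6% of all genes.

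With the replicate number as a block, 6 members were called in COLO858 at 24 h, KDM5A among them, 2 from 24 to 48 h, 5 in MMACSF at 24 h, and 1 and 3 for the line differences at 24 and 48 h. All genes moved too, to 45% called in COLO858 at 24 h, 18% from 24 to 48 h, 26.1% in MMACSF at 24 h, and 17.6% and 25.3% for the line differences. Same-numbered libraries correlated in their deviations at 0.196 to 0.211 in COLO858 and 0.0628 to 0.113 in MMACSF over all genes, and at 0.753 to 0.779 and 0.590 to 0.673 without small RNA genes. With 2 replicates a group and no label tying the numbers to a shared day or culture, they were not taken as pairs. A shift shared by the libraries of 1 number therefore stays in the spread of the main fit, which can make its calls fewer. KDM5B and KDM5A were higher in replicate 2 in 6 of 6 groups.

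Leaving out 1 library left 0 to 2 members called in COLO858 at 24 h, 0 to 1 at 48 h and 0 from 24 to 48 h, 0 in MMACSF in each of its 3 comparisons, and 0 and 1 for the line differences at 24 and 48 h. The lone library of a group is then assumed to vary like the others, and fewer samples remain. All genes lost calls too, to between 0.898% and 4.32% in COLO858 at 24 h, 1.08% and 3.02% at 48 h and 0.142% and 0.339% from 24 to 48 h. In MMACSF it was 0.458% to 0.793% at 24 h and 0.905% to 3.4% at 48 h, and for the line differences 1.56% to 2.93% and 4.1% to 6.59%.

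Leaving out 1 library also turned the sign of 10 changes that were not called. The range over libraries was −0.059 to 0.41 for ALDH1A1 in COLO858 and −0.043 to 0.23 in MMACSF, both at 48 h against DMSO. From 24 to 48 h in MMACSF it was −0.18 to 0.029 for ALDH1A3, −0.28 to 0.15 for KDM5A and −0.10 to 0.13 for KDM5B. For the line difference at 24 h it was −0.057 to 0.37 for KDM5A, −0.16 to 0.073 for KDM5B and −0.033 to 0.19 for NES, and at 48 h −0.15 to 0.31 for ALDH1A1 and −0.35 to 0.012 for KDM5A.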
